A study of Mus musculus with 31 samples.

Results

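Levels of 38 cell cycle genes were compared in mouse induced pluripotent stem cells (iPSCs, fibroblasts returned to an embryo-like state) and in the embryoid bodies grown from them. The list held 39 genes that act in G1, in S phase or in G2 and mitosis. A gene was measured by the probe sets annotated to its symbol alone, and where there were several, by the one with the highest mean over all 31 arrays. Under this rule 38 of the 39 genes were among the 18194 genes on the array, and Ccnb1, the cyclin B1 gene, was not analysed here because no probe set was named to it alone. The 38 genes were split into 11 of G1 and the G1/S switch, 12 of S phase and 15 of G2 and mitosis.

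Tail-tip fibroblasts had been taken from adult males and reprogrammed with Sendai virus. Control cells were from CD1 mice and Nos3-/- cells from the strain B6.129P2-Nos3tm1unc/J, in which the gene of endothelial nitric oxide synthase is disrupted. This enzyme supplies nitric oxide in vessel walls. Genotype and strain therefore cannot be told apart. At day 0 the cells grew undifferentiated on growth-arrested embryonic fibroblasts (feeder cells) and gave 10 control and 6 Nos3-/- arrays. By day 11 they had been aggregated in AggreWell plates and left to differentiate spontaneously as embryoid bodies, which gave 9 control and 6 Nos3-/- arrays. The labels name no separate clones or cultures for the arrays of a group, so the p-values measure the spread between arrays, which may be technical. All values are log2 intensities, on which a difference of 1 is a 2-fold change, and each array pools many cells, so fewer cells of a type and less RNA per cell cannot be told apart.

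Passage through the cell cycle is driven by cyclin-dependent kinases (CDKs), which are active only when bound to a cyclin. D-type cyclins with Cdk4 and Cdk6, and E-type cyclins with Cdk2, release E2F factors from the retinoblastoma protein, and E2F then turns on the genes that copy DNA. A later wave of genes, controlled through the CHR element by the DREAM and MuvB complexes, serves G2 and mitosis. Pluripotent mouse cells are known for a short G1, high cyclin E and low cyclin D activity, and G1 lengthens when they differentiate.

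The promoters of the measured genes were searched for the letters of these factors. RefSeq windows from 250 bases before to 50 bases after the start (build GRCm38.p6) were at hand for 31 of the 38 genes, as 33 windows, and both strands were read. E2F letters had 4 spellings, TTCCCGC first, then TTCGCGC as well, TTGCCGC besides, and last TTGGCGC. CHR letters were TTTGAA and also the variant TTCGAA, and CCAAT was the third motif. E2F letters stood in 9 of 12 windows of S-phase genes, 2 of 9 of G1 genes and 2 of 12 of G2 and M genes, against 9.57% of all 32851 windows. The CHR letters stood in 10 of 12 windows of G2 and M genes, 2 of 12 of S-phase genes and 0 of 9 of G1 genes, against 19.2% of all windows. CCAAT stood in 10 of 12, 9 of 12 and 4 of 9 windows in the same order (G2 and M, S, G1), against 37.4% of all windows. A match is a description of the letters and not a measured binding site. Shown here, as examples of the 3 kinds, are the 150 bases just before the start of Mcm6 (chr1:128359706-128359855, minus strand) and Rrm1 (chr7:102441545-102441694, plus strand) for S phase, Cdk1 (chr10:69352913-69353062, minus strand), Mki67 (chr7:135716380-135716529, minus strand) and Ccnb2 (chr9:70421555-70421704, minus strand) for G2 and M, and Ccne1 (chr7:38107491-38107640, minus strand) for G1/S. Each is written 5′ to 3′ on the gene's strand, with every match in capitals. A match to the opposite strand reads as its reverse complement (CCAAT as ATTGG), and matches that overlap, as the E2F letters on opposite strands do in Mcm6, were counted separately.
Mcm6: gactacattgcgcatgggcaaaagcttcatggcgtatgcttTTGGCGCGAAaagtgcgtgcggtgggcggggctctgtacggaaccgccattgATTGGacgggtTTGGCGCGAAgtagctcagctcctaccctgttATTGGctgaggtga
Rrm1: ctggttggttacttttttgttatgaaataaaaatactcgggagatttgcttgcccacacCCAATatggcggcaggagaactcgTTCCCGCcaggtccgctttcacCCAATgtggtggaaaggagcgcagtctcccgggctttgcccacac
Cdk1: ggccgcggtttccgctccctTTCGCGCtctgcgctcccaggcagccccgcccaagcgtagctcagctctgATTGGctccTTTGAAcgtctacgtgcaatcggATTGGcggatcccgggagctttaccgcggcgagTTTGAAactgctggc
Mki67: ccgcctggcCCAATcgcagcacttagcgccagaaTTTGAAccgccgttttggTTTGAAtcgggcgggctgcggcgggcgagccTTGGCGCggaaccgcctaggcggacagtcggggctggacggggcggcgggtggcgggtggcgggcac
Ccnb2: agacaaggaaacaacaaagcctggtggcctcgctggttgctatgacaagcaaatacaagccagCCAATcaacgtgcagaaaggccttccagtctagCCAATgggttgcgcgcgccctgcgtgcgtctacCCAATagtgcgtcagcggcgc
Ccne1: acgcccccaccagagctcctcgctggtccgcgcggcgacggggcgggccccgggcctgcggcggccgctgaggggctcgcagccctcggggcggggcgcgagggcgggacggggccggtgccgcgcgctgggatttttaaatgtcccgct
In these stretches Mcm6 had 4 E2F matches and no CHR match, Cdk1 and Mki67 had 2 CHR matches and 1 E2F match each, Rrm1 had 1 E2F and 2 CCAAT matches, Ccnb2 had 3 CCAAT matches with its 2 CHR matches elsewhere in the window, and Ccne1 had none of the 3.

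Array medians lay between 6.13 and 6.23, no 2 arrays held identical values, and no batch is given in the labels. Nos3 itself read 6.36 to 7.05 in control and 6.73 to 7.13 in Nos3-/- at day 0, and 6.76 to 7.43 and 6.70 to 7.06 at day 11. It was higher in Nos3-/- at day 0 (0.33, limma adjusted p = 0.0295) and did not pass at day 11 (-0.17, 0.386). The sources used here do not say whether its probes lie in the altered part of the gene, and so its level cannot check the genotype. The mean over 20 fibroblast markers at day 0 was 10.42 (9.52 to 10.87) in control and 9.76 (9.25 to 10.22) in Nos3-/-, and that over 14 pluripotency markers was 10.29 (9.79 to 11.23) and 11.01 (9.06 to 11.56). Pou5f1, a defining pluripotency factor, was still at 10.83 to 12.94 on the arrays of day 11. Cardiomyocyte markers (10 genes) averaged 6.18 in control at day 0 and 8.95 at day 11. Arrays that stood apart from their groups were Nos3-/- day 0 replicate 3, with the lowest pluripotency mean of that group (9.06), and Nos3-/- day 11 replicate 3, with a pluripotency mean of 8.60, a cardiomyocyte mean of 5.80 and a visceral endoderm mean of 5.69. A further one was control day 0 replicate 5, with a visceral endoderm mean of 8.62 where its group's median was 6.18.

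Between arrays of a group the 38 genes had a median pooled SD of 0.23 (0.10 to 0.50), against 0.21 over all 18194 genes. With limma across all genes and Benjamini-Hochberg adjustment (adjusted p below 0.05), 20 of the 38 genes passed in at least 1 of 5 comparisons and 18 passed in none. Those 18 were Cdk2, Cdk4, Cdk6, Cdc25a, Mcm2, Mcm3, Mcm4, Mcm5, Mcm6, Cdt1, Pcna, Cdc25b, Plk1, Aurkb, Bub1, Bub1b, Top2a and Cdc20. The 5 comparisons share groups of arrays, so the values of a gene are given side by side and no overlap between comparisons is read as a result.

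At day 0 Nos3-/- cells differed from control in 10 of the 38 genes (26.3%), of which 9 were higher and 1 was lower, where 16.6% of all genes tested passed (9.17% higher and 7.47% lower). Raised were Cdkn1b, Ccne1, Ccne2 and E2f1 of G1, Mcm7 and Rrm2 of S phase, and Ccnb2, Cdc25c and Mad2l1 of G2 and M; lowered was Ccnd2. The median change over the 38 genes was 0.15, against 0.01 over all genes, and for 0 of the 38 were the groups free of overlap, where 1.92% of all genes were. The 38 genes had a median level of 11.44, against 7.42 over all genes. With genes below the median mean level left out, 12 of 37 passed (10 higher and 2 lower), against 26.5% of the genes kept. The count of 10 fell to 3 without Nos3-/- day 0 replicate 5, to 4 without replicate 6, to 5 without replicate 2 and to 6 without replicate 4 of that group. In the same order, 8.09%, 11.6%, 11.1% and 15.7% of all genes passed, against 16.6% with every array. The count was 5 without control day 0 replicate 6 or 10 (13.5% and 13.4% of all genes). It was 6 without control day 0 replicate 2, 3 or 7 (13.5%, 13.4% and 14% of all genes). With each array's fibroblast signal as a covariate it was 0, where 1.65% of all genes passed. At day 11 the genotypes differed in 1 of the 38 genes (2.63%), Ccne1, which was higher in Nos3-/-, where 9.7% of all genes passed (4.41% higher and 5.29% lower), and 7 of the 38 had an unadjusted limma p below 0.05. Cell type markers differed at day 11 too. In Nos3-/-, 8 of 8 visceral endoderm markers were lower (median change -2.46). Of 14 pluripotency markers 5 were higher and 0 lower (median 0.84), and of 20 fibroblast markers 8 were lower and 2 higher. The part of these markers' cells in the Ccne1 difference was not tested. The count of 1 became 0 without Nos3-/- day 11 replicate 4 (7.39% of all genes) and 3 without Nos3-/- day 11 replicate 3 (12.6%). It was 2 without Nos3-/- day 11 replicate 6 (8.89%) or Nos3-/- day 0 replicate 5 (10.2%). Omitting control day 0 replicate 8 (9.44%) or control day 11 replicate 1 (10.1%) also gave 2. With genes below the median mean level left out, it was 1 of 37, against 12.3% of the genes kept.

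From day 0 to day 11 in control, 7 of the 38 genes rose (Ccnd3, Cdkn1b, Ccne2, Tyms, Cdk1, Cdc25c and Mki67) and 3 fell (Ccnd1, Ccnd2 and Ccne1), which was 26.3% where 34.2% of all genes passed (16.0% higher and 18.2% lower). In Nos3-/-, 1 gene rose (Mki67) and 8 fell (Ccnd1, Ccne1, Cdc6, Rrm1, Rrm2, Ccna2, Aurka and Birc5). That was 23.7% where 31.1% of all genes passed (13.0% higher and 18.1% lower). The count was 4 without Nos3-/- day 11 replicate 2, where 24.5% of all genes passed. With each array centred on its median, the calls were 9 higher and 2 lower in control and 2 higher and 4 lower in Nos3-/-. Of all genes 32.7% and 28.4% passed there. After quantile normalization the calls were 2 higher and 5 lower in Nos3-/- (29.3% of all genes). The difference between the genotypes in the change from day 0 to day 11 passed for none of the 38 genes with limma (0 called, 6 at an unadjusted p below 0.05), where 1.24% of all genes passed (0.522% with a more positive change in Nos3-/- and 0.715% with a more negative one). Without Nos3-/- day 11 replicate 3, 2 of the 38 passed, where 3.41% of all genes did. With genes below the median mean level left out, 10 of 37 passed over time in control and 9 of 37 in Nos3-/-. Of the genes kept, 42.2% and 41.3% passed.

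Left out together, as a choice made after seeing the data, the 2 arrays that stood apart raised these counts to 15, 3, 14, 14 and 3 of 38 (both genotype comparisons, control and Nos3-/- over time, and the difference of the changes), while 25.7%, 13.5%, 37.6%, 35.7% and 7.23% of all genes passed. Every gene called with all 31 arrays was also called without those 2. Gained at day 0 were Ccnd3, Plk1, Aurka, Aurkb and Bub1, and gained at day 11 were Ccne2 and Mcm7. Gained over time were E2f1, Mcm2, Mcm5 and Rrm1 in control and Cdk4, Ccne2, Pcna, Plk1 and Mad2l1 in Nos3-/-. The difference of the time changes then passed for Ccne2 (-1.40, limma adjusted p = 0.000918), Mad2l1 (-0.88, 0.0162) and Rrm2 (-0.39, 0.0291).

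**Figure D1:**
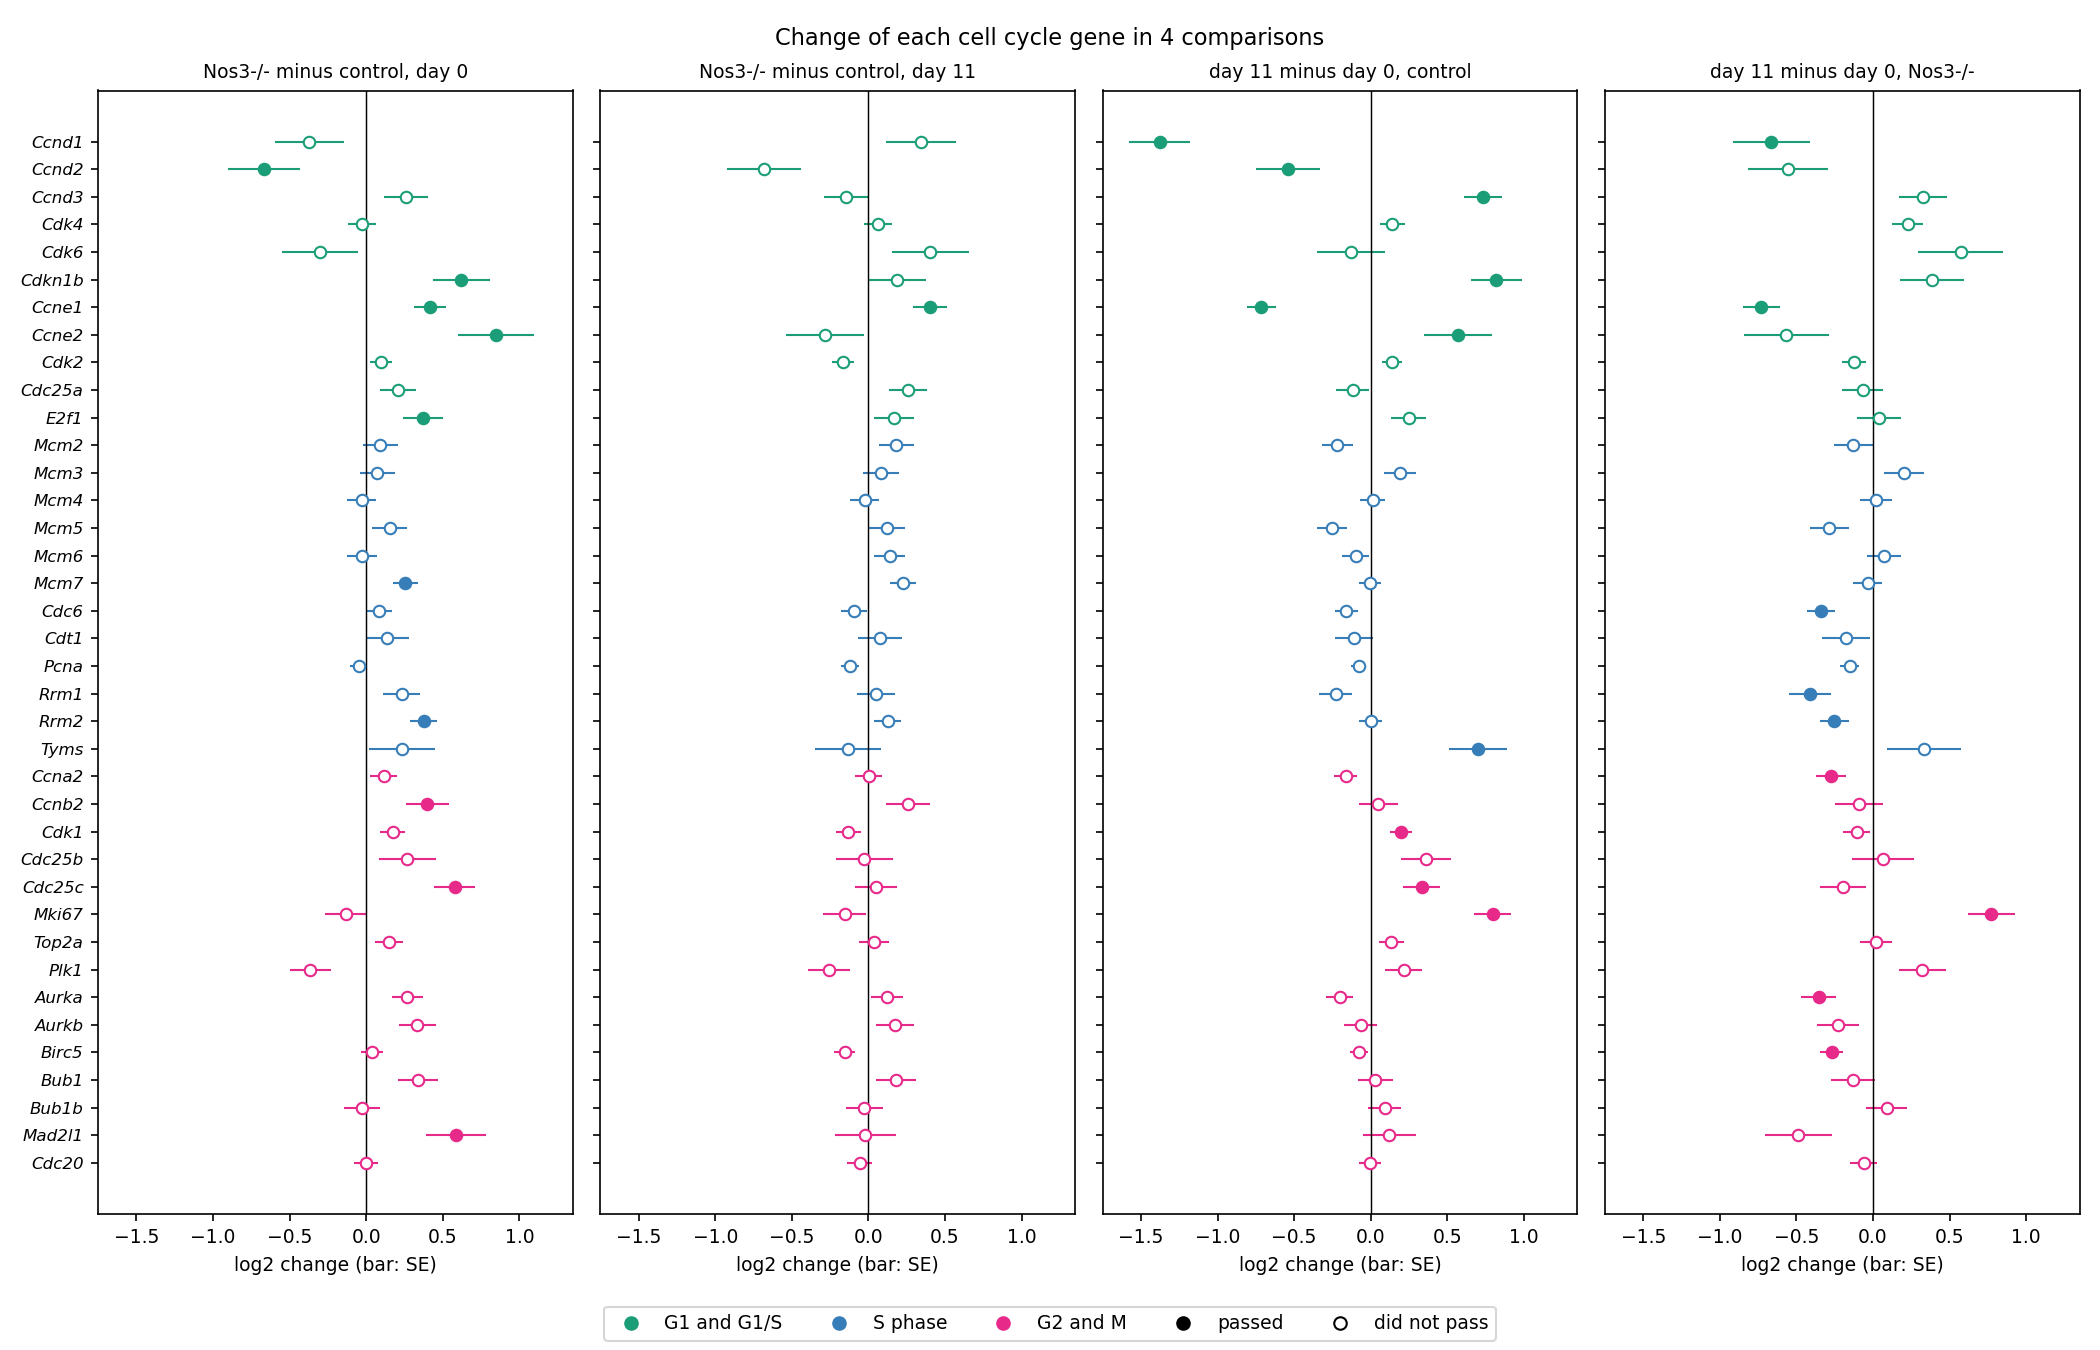
The plot of changes shows the log2 change (x axis, bar: SE) of each of the 38 genes (rows, ordered G1, S, then G2 and M) in 4 comparisons, filled where limma's adjusted p was below 0.05. Filled points at day 0 lie right of 0 except Ccnd2 (-0.67), and the time comparisons show Ccnd1 and Ccne1 far left of 0 and Mki67 far right in both genotypes.

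The D-type cyclins open G1 by activating Cdk4 and Cdk6, and the 3 of them followed different courses. Ccnd1 spanned 10.95 to 12.24 (median 11.99) in control at day 0 and 9.72 to 10.77 (median 10.47) at day 11, so that no control array of day 11 reached the lowest of day 0. It fell by 1.38 in control (SE 0.20, limma adjusted p = 3.39e-06), a 2.6-fold drop, and all 3 of its probe sets were lower at day 11 (-1.38, -1.46 and -1.93). In Nos3-/- it spanned 10.31 to 12.49 (median 11.44) at day 0, the widest range of the 4 groups, and 10.58 to 10.90 (median 10.73) at day 11. There the groups overlapped, and the fall of 0.67 (SE 0.25, adjusted p = 0.0438) no longer passed with 1 of 8 arrays omitted: Nos3-/- day 0 replicate 1 (0.143), 2 (0.0962) or 4 (0.0779) or Nos3-/- day 11 replicate 1 (0.0677), 2 (0.0824), 4 (0.06), 5 (0.0728) or 6 (0.0534). Between the genotypes Ccnd1 did not pass, with -0.37 at day 0 (95% confidence interval -0.83 to 0.09) and 0.34 at day 11 (-0.13 to 0.81); without Nos3-/- day 0 replicate 1 the first was -0.59 with adjusted p = 0.0489. The 2 time changes of Ccnd1 differed by 0.71 (SE 0.32), which did not pass (adjusted p = 0.253). Over the same time the fibroblast marker mean fell from 10.42 to 9.29 in control and from 9.76 to 8.38 in Nos3-/-. Among control arrays of day 0, replicate 6 was highest and replicate 8 lowest for that mean (10.87 and 9.52) and for Ccnd1 and Ccnd2. The part of fibroblasts in the falls of these 2 cyclins was not tested.

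Ccnd2 was the 1 member lower in Nos3-/- at day 0. It spanned 11.16 to 12.82 (median 12.28) in control and 10.54 to 12.14 (median 11.51) in Nos3-/-, with overlap, and the difference was -0.67 (SE 0.24, limma adjusted p = 0.0496). That call was lost without any 1 of 19 of the 31 arrays, with adjusted p from 0.0505 to 0.213. At day 11 it spanned 10.96 to 12.05 (median 11.62) in control and 10.24 to 11.49 (median 11.02) in Nos3-/-, a difference of the same size that did not pass (-0.68, SE 0.24, adjusted p = 0.0707) but did without Nos3-/- day 0 replicate 5 (0.0455), control day 0 replicate 8 (0.0478), Nos3-/- day 11 replicate 6 (0.0448) or control day 11 replicate 1 (0.0375). All 7 probe sets of Ccnd2 were lower in Nos3-/-, by 0.19 to 0.67 at day 0 and 0.12 to 0.68 at day 11. Over time it fell by 0.54 in control (SE 0.21, adjusted p = 0.0446, lost without any 1 of 13 arrays with values from 0.0502 to 0.095), and its change of -0.56 in Nos3-/- did not pass (0.106; 0.0312 without Nos3-/- day 0 replicate 5).

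Ccnd3 went the other way. Its control arrays spanned 9.24 to 10.11 (median 9.63) at day 0 and 9.92 to 10.71 (median 10.51) at day 11, a rise of 0.73 (SE 0.13, limma adjusted p = 3.36e-05) with a small overlap of the ranges. In Nos3-/- the spans were 9.33 to 10.20 (median 10.00) and 9.76 to 10.47 (median 10.31), and the change of 0.33 did not pass (adjusted p = 0.114) except without Nos3-/- day 11 replicate 3 (0.0368), which was the lowest array of its group at 9.76. The genotype differences of Ccnd3, 0.26 at day 0 and -0.15 at day 11, did not pass (adjusted p = 0.215 and 0.633); without Nos3-/- day 0 replicate 3 the first did (0.045). Of their kinases, Cdk4 stood at 11.59 to 12.40 over all 31 arrays and had differences of at most 0.23, of which none passed with all arrays. Over time it passed without control day 11 replicate 1 in control (0.0152), and without that array (0.0327) or Nos3-/- day 11 replicate 3 (0.0293) in Nos3-/-. Cdk6 had differences between -0.30 and 0.57 in comparisons of 2 groups, and its time changes differed by 0.70. None of these passed. Its second probe set read 1.13 higher in Nos3-/- at day 11, against 0.40 on the probe set used.

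Cdkn1b encodes p27, an inhibitor of the CDKs that bind cyclins E and D. Control arrays read 8.89 to 10.06 (median 9.57) at day 0, and Nos3-/- arrays 9.36 to 10.60 (median 10.33). Cdkn1b was 0.62 higher in Nos3-/- at day 0 (SE 0.19, limma adjusted p = 0.0222), a call lost without Nos3-/- day 0 replicate 5 (0.0726) or 6 (0.0698). By day 11 the control arrays had moved to 9.96 to 10.63 (median 10.41), a rise of 0.82 (SE 0.17, adjusted p = 0.000268), and the Nos3-/- arrays read 10.25 to 11.46 (median 10.37). The median of the control group at day 11 was thus close to that of Nos3-/- at either day, and neither the day 11 difference (0.19, adjusted p = 0.65) nor the change in Nos3-/- (0.39, adjusted p = 0.159) passed. A second probe set of Cdkn1b, at a mean of 5.57, showed none of this (0.04 at day 0 and -0.15 over time in control).

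**Figure D2:**
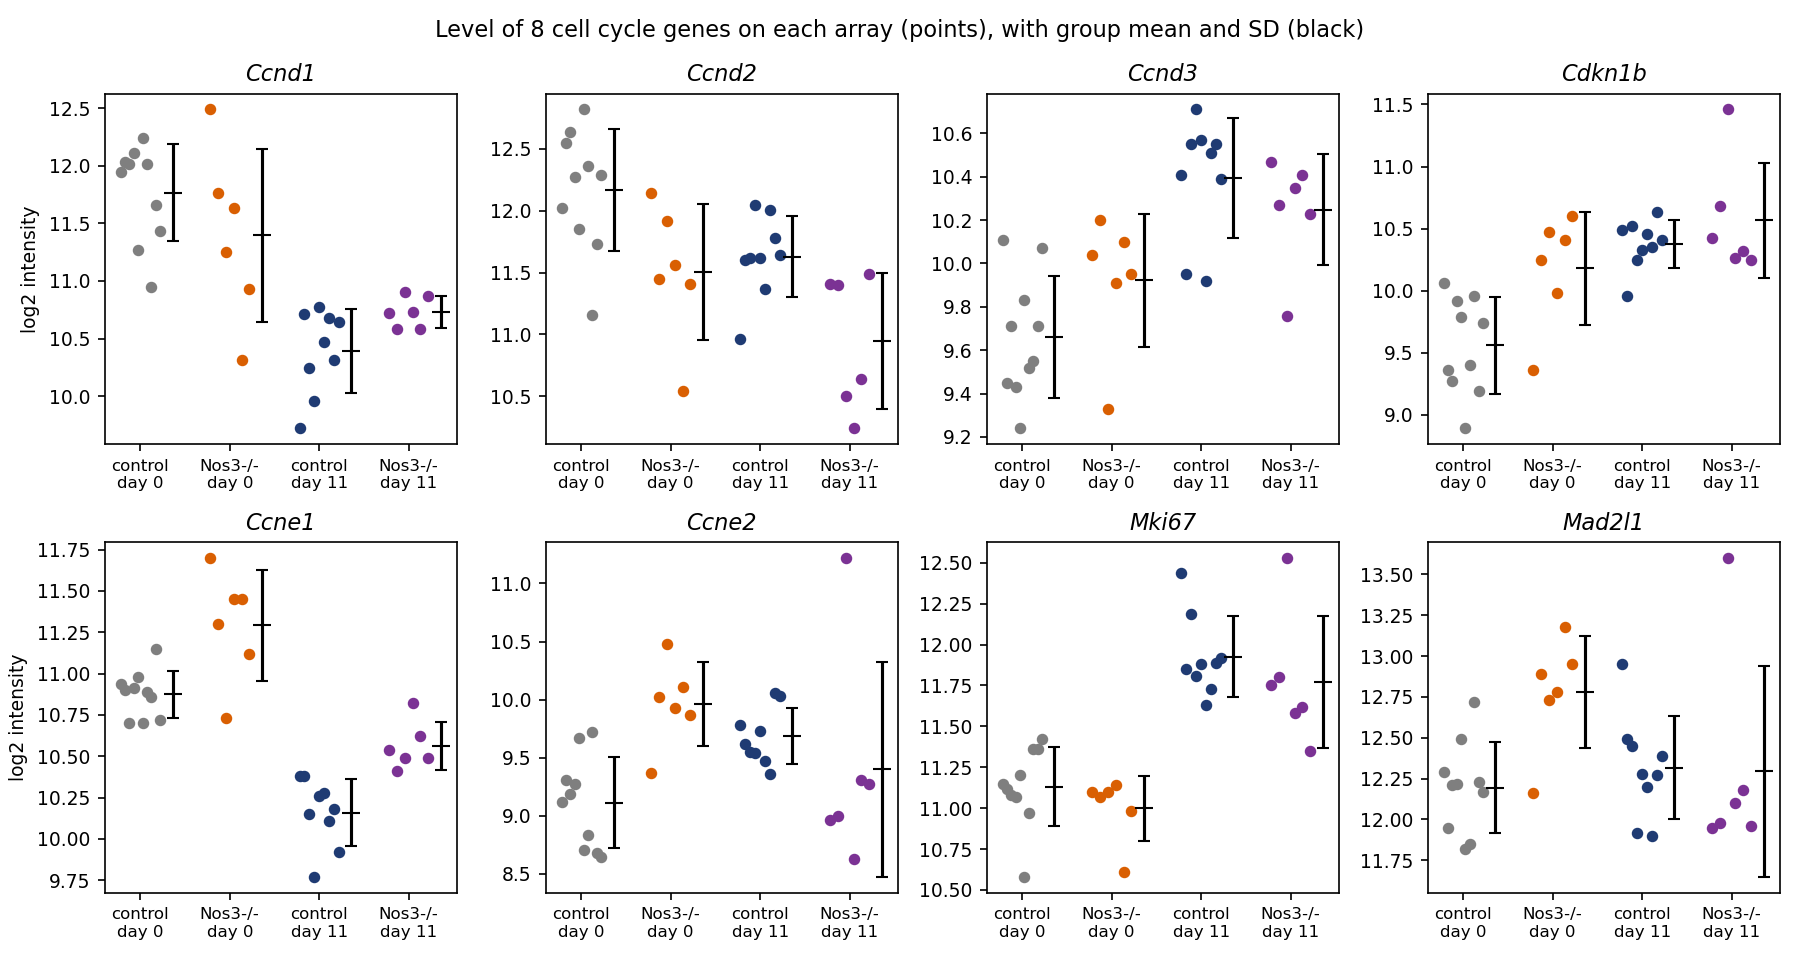
Log2 intensity (y axis, a separate scale for each gene) of 8 cell cycle genes on every array, as points in the 4 groups, with the group mean and SD in black. Ccnd1, Ccne1 and Mki67 separate the days in control without overlap, and a single Nos3-/- day 11 array lies far above the rest of its group for Ccne2 (11.22) and Mad2l1 (13.60).

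Cyclin E partners Cdk2 to start DNA replication. Ccne1 was the 1 member that passed in all 4 comparisons of 2 groups, which share arrays and so are not separate support. It spanned 10.70 to 11.15 (median 10.90) in control and 10.73 to 11.70 (median 11.38) in Nos3-/- at day 0, where it was 0.42 higher in Nos3-/- (SE 0.11, limma adjusted p = 0.00836). Day 11 values were 9.77 to 10.38 (median 10.18) in control and 10.41 to 10.82 (median 10.52) in Nos3-/-, without overlap, where 2.6% of all genes did not overlap. The day 11 difference was 0.40 (SE 0.11, adjusted p = 0.0147), and it was lost without Nos3-/- day 11 replicate 4 (0.0563). Ccne1 fell from day 0 to day 11 by 0.72 in control (SE 0.10, adjusted p = 8.35e-07), without overlap of the days, and by 0.73 in Nos3-/- (SE 0.12, adjusted p = 4.9e-05). The 2 falls differed by -0.01 (95% confidence interval -0.33 to 0.30). A second probe set read the same directions (0.51 and 0.45 between genotypes, -0.93 and -0.99 over time).

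Its paralog Ccne2 behaved otherwise. At day 0 it spanned 8.64 to 9.72 (median 9.16) in control and 9.37 to 10.48 (median 9.98) in Nos3-/-, the largest rise among the 38 genes at 0.85 (SE 0.25, limma adjusted p = 0.019), or 1.8-fold, lost without Nos3-/- day 0 replicate 5 (0.055). It rose over time in control, to 9.36 to 10.06 (median 9.62), by 0.57 (SE 0.22, adjusted p = 0.0459), a call lost without any 1 of 19 arrays (0.0502 to 0.0831). Nos3-/- arrays of day 11 read 8.63 to 9.31 apart from replicate 3, at 11.22. With that array the Nos3-/- change over time was -0.57 (adjusted p = 0.121), the day 11 difference -0.28 (0.591) and the difference between the time changes -1.13 (SE 0.36, 0.103); without it their adjusted p-values were 0.000558, 0.014 and 0.000829. These 3 calls thus depended on Nos3-/- day 11 replicate 3, and no other single omission changed them.

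Among the remaining G1 genes, E2f1, which encodes the factor that switches on S-phase genes, was 0.37 higher in Nos3-/- at day 0 (SE 0.13, limma adjusted p = 0.0455). Its arrays spanned 7.66 to 8.42 (median 8.09) in control and 7.88 to 8.74 (median 8.49) in Nos3-/-, with overlap, and the call was lost without any 1 of 19 arrays (0.0508 to 0.136). Cdk2 had its highest control day 11 value, 10.60, on replicate 4. Its differences lay between -0.17 and 0.14 in comparisons of 2 groups, and its time changes differed by -0.26, with none passing. Over time in control it passed without control day 0 replicate 1 (0.0469) or 9 (0.0419). Cdc25a, a phosphatase that removes the brake on Cdk2, read 0.21 and 0.26 higher in Nos3-/- at day 0 and day 11, which did not pass (adjusted p = 0.248 and 0.211).

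In S phase, the 6 Mcm genes encode the ring-shaped helicase that opens the DNA. At day 0 Mcm7 spanned 12.83 to 13.35 (median 13.14) in control and 13.11 to 13.57 (median 13.36) in Nos3-/-. It was 0.26 higher in Nos3-/- (SE 0.08, limma adjusted p = 0.0335), a call lost without Nos3-/- day 0 replicate 1 (0.0702), 2 (0.0611), 4 (0.087), 5 (0.0667) or 6 (0.0533), or control day 0 replicate 6 (0.0632) or 10 (0.0582). At day 11 the difference of Mcm7 was 0.22 (SE 0.08, adjusted p = 0.0964), and 0.00557 without Nos3-/- day 11 replicate 3, the lowest array of its group at 12.90. All 4 probe sets of Mcm7 were higher in Nos3-/- at both days (0.20 to 0.40 and 0.17 to 0.49), and its time changes were 0.00 in control and -0.03 in Nos3-/-. Mcm2, Mcm3, Mcm4, Mcm5 and Mcm6 did not pass in a comparison of 2 groups, with differences between -0.29 and 0.20. The nearest to passing was Mcm5 over time in control (-0.25, SE 0.10, adjusted p = 0.052), which passed without any 1 of 10 arrays (0.0233 to 0.0498). Its change in Nos3-/- (-0.28, 0.0868) passed without Nos3-/- day 0 replicate 3 (0.0205). The probe sets of Mcm5 disagreed over time. Another, at a mean of 10.23, changed by 0.10 in control and 0.10 in Nos3-/-. The remaining probe set, at 7.10, changed by 0.02 and -0.21.

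Licensing of origins also needs Cdc6 and Cdt1, which load the Mcm ring. Cdc6 spanned 9.71 to 10.22 (median 10.00) in Nos3-/- at day 0 and 9.49 to 9.85 (median 9.65) at day 11, a fall of 0.34 (SE 0.09, limma adjusted p = 0.00589) that kept its call under every single omission. In control it spanned 9.63 to 10.17 and 9.53 to 9.89, and the change of -0.16 did not pass (adjusted p = 0.0925; 0.0432 without control day 0 replicate 6). Cdt1 and Pcna, the sliding clamp of the DNA polymerases, did not pass; Pcna lay within 13.33 to 13.79 on all 31 arrays, and its change in Nos3-/- over time (-0.15, adjusted p = 0.0649) passed without Nos3-/- day 0 replicate 3 (0.024) or Nos3-/- day 11 replicate 5 (0.0497).

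Rrm1 and Rrm2 are the subunits of ribonucleotide reductase, which supplies the building blocks of DNA. At day 0 Rrm2 spanned 12.45 to 12.69 (median 12.62) in control and 12.60 to 13.15 (median 12.98) in Nos3-/-, where 5 of the 6 arrays lay above every control array and replicate 3 did not. The difference was 0.38 (SE 0.09, limma adjusted p = 0.004), kept under every single omission, and all 3 probe sets were higher (0.32 to 0.53). In Nos3-/- at day 11 Rrm2 read 12.56 to 13.05 (median 12.69), a fall of 0.25 (SE 0.10, adjusted p = 0.0482) lost without any 1 of 23 arrays (0.0503 to 0.12), while the control change was 0.00 (95% confidence interval -0.16 to 0.16). On another Rrm2 probe set the time changes were -0.49 in control and -0.59 in Nos3-/-. Rrm1 read 11.23 to 11.70 (median 11.37) and 10.33 to 11.76 (median 11.00) in Nos3-/- at day 0 and day 11, a fall of 0.41 (SE 0.14, adjusted p = 0.022) lost without Nos3-/- day 0 replicate 5 (0.0637) or 6 (0.0547) or Nos3-/- day 11 replicate 2 (0.0885). Its control change of -0.23 did not pass (adjusted p = 0.103; omitting Nos3-/- day 11 replicate 2 gave 0.0482 and omitting replicate 3 gave 0.036), and a second Rrm1 probe set read -0.73 in control and -0.83 in Nos3-/-. Tyms, thymidylate synthase, rose by 0.70 in control (SE 0.19, adjusted p = 0.00472) on a probe set at a mean of only 5.20; its other 3 probe sets, lower still, changed by -0.10 to 0.02.

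Of the G2 and M genes, Ccnb2, Cdc25c and Mad2l1 were higher in Nos3-/- at day 0. Cdc25c, the phosphatase that activates Cdk1, spanned 7.68 to 8.31 (median 8.12) in control and 8.21 to 9.24 (median 8.61) in Nos3-/-. Its difference of 0.58 (SE 0.13, limma adjusted p = 0.00414), 1.49-fold, kept its call under every single omission, and a second probe set read 0.59. Cdc25c also rose over time in control, to 8.04 to 8.99 (median 8.39), by 0.33 (SE 0.12, adjusted p = 0.0305), lost without control day 0 replicate 2 (0.0525) or 6 (0.0657) or control day 11 replicate 1 (0.0754) or 9 (0.0563). Ccnb2, cyclin B2, spanned 10.97 to 11.64 (median 11.34) in control and 11.48 to 12.12 (median 11.71) in Nos3-/- at day 0, 0.40 higher (SE 0.14, adjusted p = 0.0487), and lost the call without any 1 of 20 arrays (0.0519 to 0.177). Cdk1, the mitotic kinase itself, had a day 0 difference of 0.17 that did not pass (adjusted p = 0.136; 0.0249 without Nos3-/- day 0 replicate 1). It rose over time in control from 11.75 to 12.16 (median 11.99) to between 12 and 12.51 (median 12.17), by 0.20 (SE 0.07, adjusted p = 0.0283), lost without control day 0 replicate 6 (0.0599) or control day 11 replicate 1 (0.0712). Cyclin A2 (Ccna2) fell by 0.28 in Nos3-/- over time (SE 0.10, adjusted p = 0.0281), from 11.43 to 11.86 to 11.18 to 11.58, a call lost without Nos3-/- day 0 replicate 4 (0.071), 5 (0.0534) or 6 (0.057) or Nos3-/- day 11 replicate 2 (0.0808), 3 (0.0516) or 6 (0.0559); its second probe set read 0.08. Its control change (-0.16, 0.0971) passed without control day 11 replicate 1 (0.0203), and that of Cdc25b (0.36, 0.087), a further Cdk1 phosphatase, without control day 0 replicate 1 (0.0194).

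Mki67, the gene of the proliferation marker Ki-67, was the 1 member that rose in both genotypes. It spanned 10.58 to 11.42 (median 11.14) in control and 10.61 to 11.14 (median 11.09) in Nos3-/- at day 0. By day 11 the spans were 11.63 to 12.44 (median 11.88) and 11.35 to 12.53 (median 11.69). In both genotypes every array of day 11 lay above every array of day 0, where 6.52% of all genes in control and 7.83% in Nos3-/- did not overlap. The rises were 0.80 (SE 0.12, limma adjusted p = 8.01e-06) and 0.77 (SE 0.15, adjusted p = 0.000429), or 1.74-fold and 1.71-fold, and both kept their calls under every single omission. They differed by -0.02 (95% confidence interval -0.43 to 0.38). Between the genotypes Mki67 differed by -0.13 at day 0 (-0.41 to 0.15) and -0.16 at day 11 (-0.44 to 0.13), which did not pass. Only 1 probe set was named to it.

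The spindle checkpoint holds chromosomes until all are attached, and Mad2l1 encodes its MAD2 protein. At day 0 Mad2l1 spanned 11.82 to 12.72 (median 12.22) in control and 12.16 to 13.18 (median 12.84) in Nos3-/-, 0.59 higher (SE 0.20, limma adjusted p = 0.0375), lost without any 1 of 9 arrays (0.0517 to 0.128). Nos3-/- arrays of day 11 read 11.95 to 12.18 apart from replicate 3, at 13.60. The Nos3-/- change of Mad2l1 over time was -0.49 with that array (adjusted p = 0.0894) and passed without it (0.00117) or without Nos3-/- day 0 replicate 1 (0.0342). The difference between its time changes was -0.61 with all arrays (0.261), and its adjusted p was 0.0213 without that array. Bub1, Bub1b and Cdc20, of the same checkpoint, did not pass, though Bub1 at day 0 (0.34, 0.0679) did without Nos3-/- day 0 replicate 3 (0.0249) or control day 0 replicate 1 (0.0354) or 8 (0.044). The probe sets of Bub1 disagreed: the one used, at a mean of 11.93, differed by 0.34 and 0.18 between the genotypes at day 0 and day 11, and one at 6.98 by 1.91 and 2.08. For Bub1b the probe set at 5.42 differed by 0.54 and 0.66 and the one used by -0.02 and -0.03.

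Among mitotic kinases and their partners, Aurka and Birc5 fell in Nos3-/- over time. Aurka, which builds the spindle poles, went from 11.09 to 11.40 (median 11.19) to 10.64 to 11.16 (median 10.79), a fall of 0.35 (SE 0.11, limma adjusted p = 0.0188) lost without Nos3-/- day 0 replicate 5 (0.0525) or Nos3-/- day 11 replicate 2 (0.0549). Its day 0 genotype difference (0.27, 0.0672) passed without control day 0 replicate 9 (0.0365) or control day 11 replicate 1 (0.039), and its control change (-0.20, 0.0831) without control day 0 replicate 6 (0.0434) or 7 (0.0491) or control day 11 replicate 1 (0.0142). Birc5, encoding survivin of the chromosomal passenger complex, went from 11.28 to 11.61 (median 11.59) to 11.10 to 11.47 (median 11.25), a fall of 0.27 (SE 0.08, adjusted p = 0.00893) kept under every single omission. Aurkb, the kinase of that complex, did not pass (-0.23, adjusted p = 0.209), and its day 0 genotype difference of 0.33 missed the threshold (0.0576) but passed without any 1 of 6 arrays (0.028 to 0.0492). Plk1, a kinase of mitotic entry, was the member with the lowest G2 and M difference at day 0, -0.36 (SE 0.14, adjusted p = 0.0633), which passed without Nos3-/- day 0 replicate 4 (0.0412), Nos3-/- day 11 replicate 3 (0.0268) or control day 11 replicate 1 (0.0445). Its change in Nos3-/- over time (0.32, 0.107) passed without Nos3-/- day 11 replicate 3 (0.00975). Top2a, which untangles DNA, lay between 12.12 and 13.10 on all 31 arrays. Its differences were between 0.02 and 0.15 in comparisons of 2 groups, and its time changes differed by -0.11.

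The phases were also set against each other. The mean of the 23 G1 and S genes minus that of the 15 G2 and M genes was -0.06 ± 0.15 (SD, n = 10) for control arrays of day 0 and -0.12 ± 0.22 (SD, n = 6) for Nos3-/- arrays of that day. At day 11 it was -0.21 ± 0.21 (SD, n = 9) for control and -0.15 ± 0.14 (SD, n = 6) for Nos3-/-. Its group differences were -0.05 and 0.05 between the genotypes at day 0 and day 11, -0.14 and -0.04 over time in control and Nos3-/-, and 0.10 for the difference of the time changes. The pooled SD between single arrays of a group was 0.18, and no test was made because the genes were chosen with earlier results known. The phase means themselves were each higher in Nos3-/- at day 0, as descriptions, with overlap of the arrays in all 3 phases. G1 genes averaged 10.26 (10.12 to 10.39) in control and 10.39 (10.15 to 10.54) in Nos3-/-. S genes averaged 11.42 (11.235 to 11.66) and 11.55 (11.16 to 11.80). G2 and M genes averaged 10.93 (10.61 to 11.15) and 11.11 (10.94 to 11.24). The G1 mean counts the inhibitor Cdkn1b together with the cyclins. Control day 11 replicate 1 had the highest G2 and M mean of all arrays, 11.57, and the lowest fibroblast mean of its group, 8.50; the part of either in the results was not tested.

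**Figure D3:**
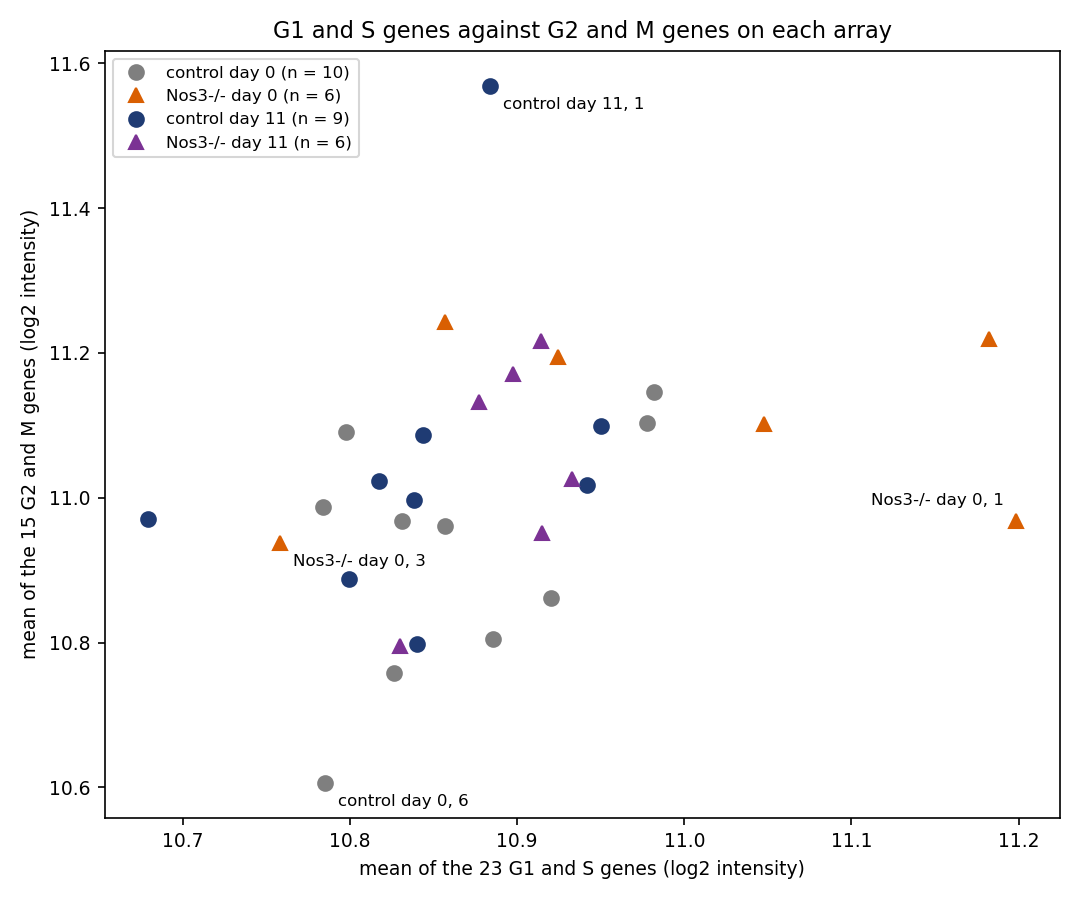
Each point is 1 array, with the mean log2 intensity of the 23 G1 and S genes on the x axis and of the 15 G2 and M genes on the y axis; colour and shape give the group. The 4 groups lie over one another, and control day 11 replicate 1 sits alone at a G2 and M mean of 11.57.

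Fibroblast signal also differed at day 0. Of 20 fibroblast markers, 7 were lower and 0 higher in Nos3-/- at day 0, and of 14 pluripotency markers 4 were higher and 0 lower, where 9.17% of all genes were higher and 7.47% lower. When only the 16 arrays of day 0 were fitted, 9 of the 38 genes passed, where 13.8% of all genes did. Plk1 (-0.36, limma adjusted p = 0.0234) was among them, and Ccnd2 (0.0779) and E2f1 (0.0669) were not. With the fibroblast mean of each array added as a covariate, 0 of the 38 passed with limma (4 at an unadjusted p below 0.05) and 1.65% of all genes did. For the 10 genes called at day 0 the change then kept a median share of 0.66 of its size (-0.02 to 1.04), their SE grew by a median factor of 1.22, and adjusted p ran from 0.149 to 0.991. Rrm2 went from 0.38 to 0.32 (adjusted p = 0.149), Ccne2 from 0.85 to 0.56, Ccne1 from 0.42 to 0.30, Cdc25c from 0.58 to 0.29, Mad2l1 from 0.59 to 0.22, and Ccnd2 from -0.67 to 0.01. E2f1 did not shrink (0.37 to 0.39, adjusted p = 0.398), nor did Plk1 (-0.36 to -0.43, adjusted p = 0.137).

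Other genes of the pathway, in lists kept apart from the 38, gave a wider view. Of 27 further replication genes, 14 were higher and 0 lower in Nos3-/- at day 0 (51.9%, median change 0.40, where 16.6% of all genes passed, 9.17% higher), among them Gins1 (0.77, limma adjusted p = 0.000512) and Prim1 (0.67, 0.000495), which encode a part of the replicative helicase and the primase subunit that starts new strands. At the other end of those that passed were Cdc45 (0.36, 0.0109) and Orc3 (0.40, 0.00381). The 27 genes had a median level of 10.22, and 26.5% of genes above the median mean level passed at day 0. Counts of this list with the fibroblast covariate, where 1.65% of all genes passed, are not given here. At day 11, 0 of the 27 passed with limma (1 at an unadjusted p below 0.05). Over time 1 rose (Pole, 0.37, 0.0334, lost without any 1 of 6 arrays with values up to 0.0718) and 2 fell in control (11.1%, against 34.2% of all genes; median 0.05), and 0 rose and 13 fell in Nos3-/- (48.1%, against 31.1% of all genes; median -0.32), with Orc1 (-0.81, 0.000279) and Tk1 (-0.67, 8.12e-06), genes of the origin recognition complex and of thymidine salvage, at one end and Rfc3 (-0.35, 0.0444, lost without any 1 of 9 arrays with values up to 0.127) and Orc6 (-0.36, 0.00644) at the other. The difference of the time changes passed for 1 of the 27, Orc6 (-0.50, SE 0.12, adjusted p = 0.0424), a call lost without any 1 of 18 arrays. Of all genes 1.24% passed there. Of the 12 S-phase members, 2 were called at day 0 (16.7%, near the 16.6% of all genes; median 0.12).

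Of 38 further mitotic genes, 8 were higher and 0 lower at day 0 (21.1%). Of all genes 16.6% passed there, and of genes above the median mean level 26.5%. This list averaged 10.35 in control and 10.55 in Nos3-/- at day 0. Leading the 8 were Ncapd2 (0.87, limma adjusted p = 0.000152), of the condensin complex, and Nuf2 (0.75, 4.36e-06), of the kinetochore. Both were also higher at day 11 (0.90, 0.000108, and 0.45, 0.00357), the 2 that passed there (5.26%, against 9.7% of all genes). In control 9 rose over time and 1 fell (26.3%, against 34.2% of all genes), with Cenpf (0.59, 0.00198) and Smc4 (0.48, 4.77e-05) at the top and Nek2 (-0.32, 0.00487) at the bottom. In Nos3-/- 4 passed (10.5%, against 31.1% of all genes): 2 rose (Cenpf, 0.53, 0.0266, and Pkmyt1, 0.29, 0.0117) and 2 fell (Cenpa, -0.52, 0.0245, and Nek2, -0.46, 0.00236). Cenpf lost the call without Nos3-/- day 0 replicate 5 (0.067) or Nos3-/- day 11 replicate 3 (0.0883), and Cenpa without any 1 of 5 Nos3-/- arrays (up to 0.0908).

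Of 6 further CDK inhibitors, 0 passed between the genotypes with limma at day 0 or day 11 (1 at an unadjusted p below 0.05 at each). Over time Cdkn1c, encoding p57, rose by 2.19 in control (adjusted p = 0.000367) and 2.56 in Nos3-/- (0.00126), the largest change in these lists. Cdkn2b and Cdkn2a, the neighbouring genes of p15 and of p16 and Arf, fell by 1.85 (1.78e-08) and 1.40 (1.09e-05) in control and by 1.36 (0.000173) and 1.30 (0.000812) in Nos3-/-. Of the 20 fibroblast markers, 11 fell and 4 rose over time in control and 13 fell and 0 rose in Nos3-/-. Their part in the result was not tested. In all, 1 of the 6 rose and 3 fell in control, where 34.2% of all genes passed, and 1 rose and 4 fell in Nos3-/-, where 31.1% did.

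Of 21 genes of the retinoblastoma, E2F and DREAM group, 1 was higher (Rbbp4, 0.20, limma adjusted p = 0.0407) and 1 lower (Myc, -0.66, 0.0364) at day 0, calls lost without any 1 of 9 (up to 0.157) and 6 (up to 0.112) arrays (9.52% called, against 16.6% of all genes), and 0 passed at day 11 (1 at an unadjusted p below 0.05). In control 10 passed over time (47.6%, against 34.2% of all genes): 6 rose, with Tfdp2 (0.69, 0.000102) and Lin52 (0.49, 0.000304) at the top, and 4 fell, with Myc (-1.28, 6.73e-06) and Rbl2, the pocket protein p130 (-0.59, 0.028), at the bottom. Rbl2 lost the call without control day 0 replicate 1 (0.0566) or control day 11 replicate 2 (0.0661) or 6 (0.0546). In Nos3-/- 7 passed (33.3%, against 31.1% of all genes): 4 rose, with Tfdp2 (0.52, 0.0154) and Rb1 (0.47, 0.0175) at the top (lost without Nos3-/- day 0 replicate 5, 0.0592, and Nos3-/- day 11 replicate 3, 0.0512), and 3 fell, with Rbl2 (-0.92, 0.00846) and E2f8 (-0.58, 0.00319) at the bottom. Foxm1, the activator of G2 and M genes, rose in control (0.28, 0.00147) and in Nos3-/- (0.47, 0.000127).

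**Figure D4:**
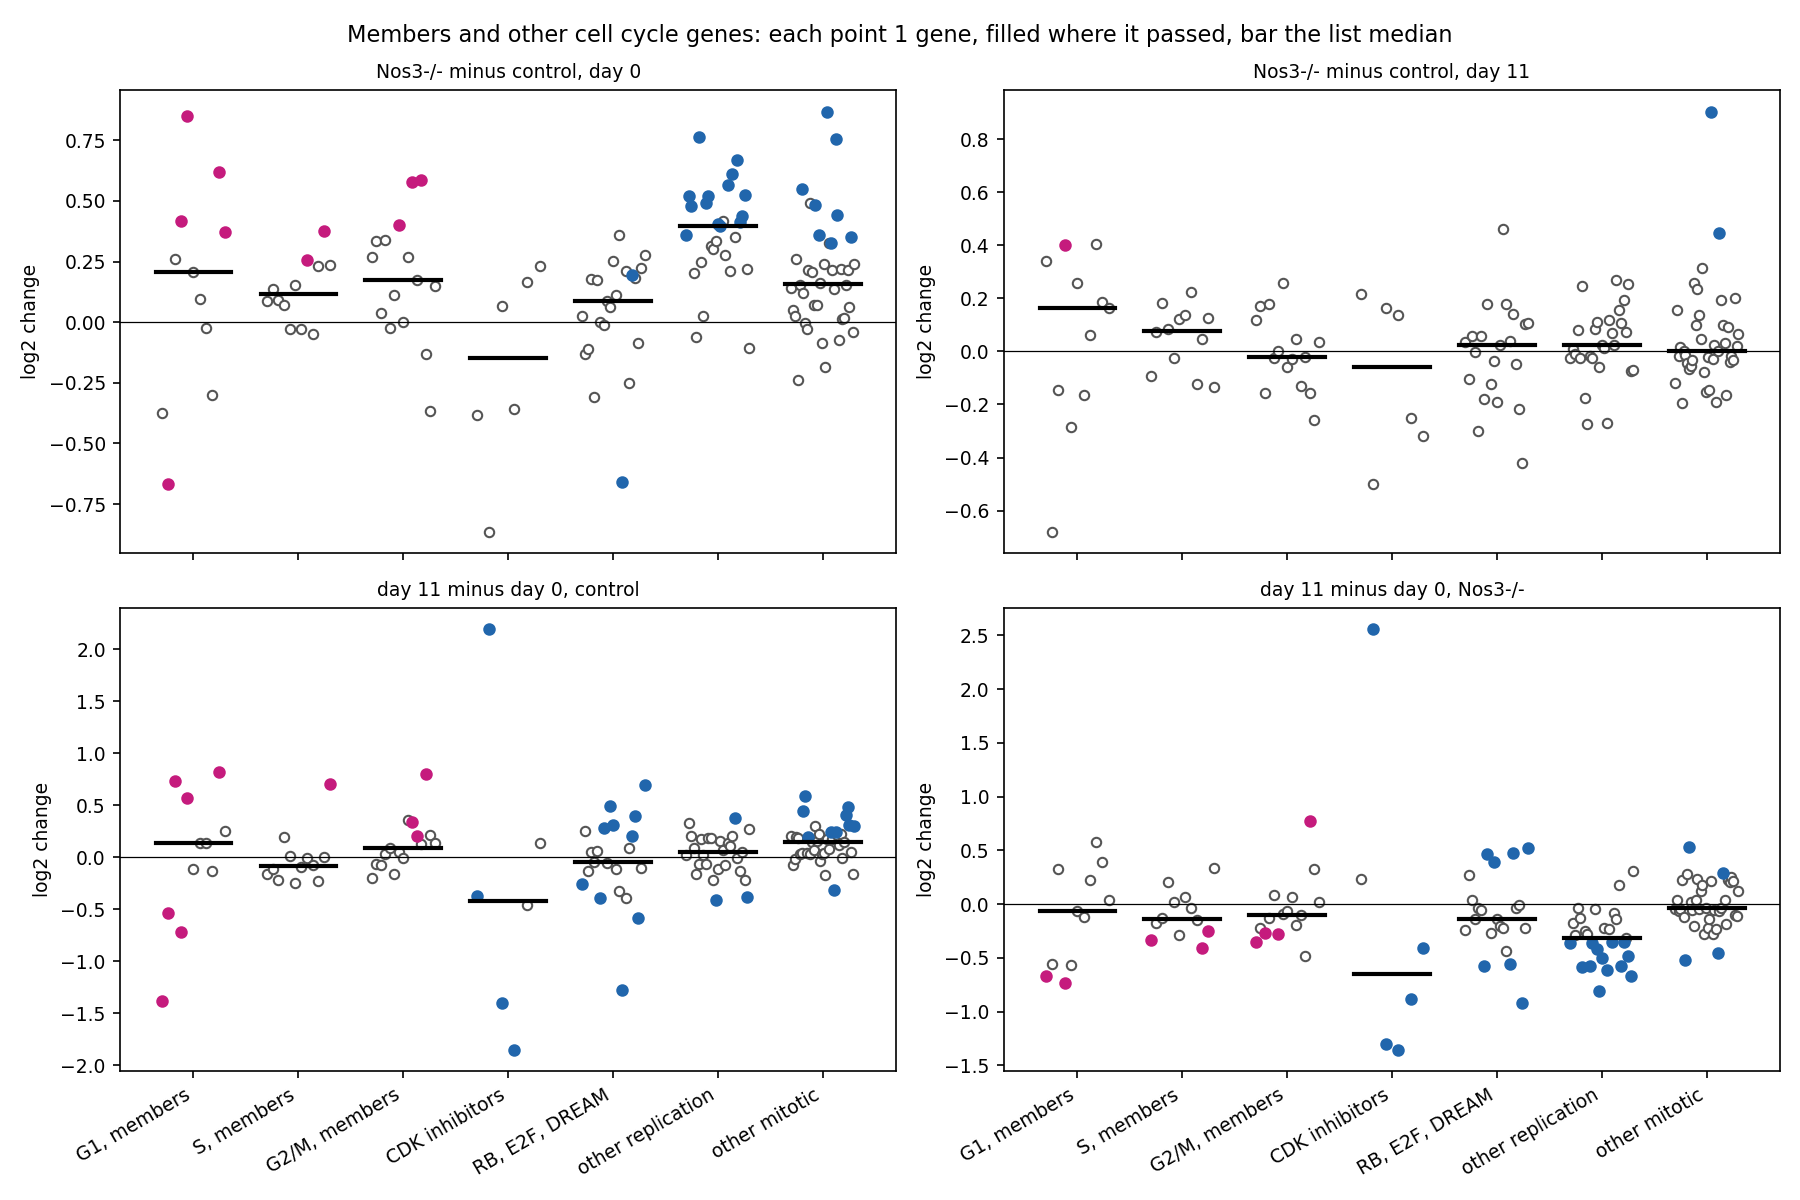
Log2 change (y axis, a separate scale for each panel) of the 38 members by phase and of 4 further lists in 4 comparisons; each point is 1 gene, filled where it passed, and the bar is the list's median. The further replication genes lie highest at day 0 (median 0.40) and are shifted down over time in Nos3-/- (median -0.32).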

How the data were processed

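Total RNA of 31 samples was hybridised as biotin-labelled cRNA, per the labels' protocols, to an array of 45101 probe sets. The authors deposited log2 intensities made with RMA (background correction, quantile normalization and summary per probe set), per the submitters' processing notes; the sources used here name no version. Probe sets were named from the platform annotation: 34958 had 1 symbol, 932 several and 9211 none. Each of 18194 genes was taken from its probe set with the highest mean, and 9012 genes had several.

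Over all genes, a model of group means was fitted (R 4.3.3, limma 3.58.1, eBayes, prior df 2.80, residual df 27), and p-values were Benjamini-Hochberg adjusted over all 18194; a gene passed at adjusted p below 0.05. The test was checked on simulated data. All members could be named; further lists were named by at most 2 passing genes at either end, and Foxm1 was added after its values were seen. Members and lists were chosen with earlier results of these data known. Alternatives were each array or set of arrays left out, other scaling, filters, probe set rules, weights, a replicate block and a fibroblast covariate. Arrays give no read depth, and their number limits the precision.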

Additional observations from a re-analysis of the deposited data

Results flagged for a closer look

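On single arrays, 20 of 164 sets of group values tested held an array far from the rest of its group. The rule flags about 1 in 20 sets by chance when each is taken alone. These sets share the same arrays, and some are means of the same genes, so the count of 20 cannot be set against that rate. Control day 11 replicate 1 was highest of its group for Cdt1 (12.52), Ccnb2 (12.19), Cdk1 (12.51), Cdc25b (8.98), Aurka (11.23) and Bub1b (10.97), for the G2 and M mean (11.57), and lowest for the G1 and S mean minus the G2 and M mean (-0.69). Nos3-/- day 11 replicate 3 was highest for Cdkn1b (11.46), Ccne2 (11.22), Rrm2 (13.05) and Mad2l1 (13.60) and lowest for Ccnd3 (9.76). Nos3-/- day 0 replicate 3 was lowest for Ccnd3 (9.33), Rrm2 (12.60) and Bub1b (9.93). The others were control day 0 replicate 9, highest for Cdc25a (10.87) and Ccna2 (11.83), control day 11 replicate 4, highest for Cdk2 (10.60), and Nos3-/- day 0 replicate 5, lowest for Mki67 (10.61).

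Orc6, an origin recognition gene outside the 38, changed over time differently in the genotypes (-0.50, limma adjusted p = 0.0424). It was 1 of 27 further replication genes to pass there (3.7%, against 1.24% of all genes). The call was lost under many single omissions, with adjusted p up to 0.0999 (without Nos3-/- day 0 replicate 5).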

How the results depend on the processing

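Of the 10 genes called at day 0, 7 lost the call when some 1 array was left out and all 10 did under some setting; at day 11 the 1 call was lost in an omission; over time 6 of 10 in control and 5 of 9 in Nos3-/- were lost somewhere. Leaving out each array in turn gave 3 to 13 calls at day 0, 0 to 3 at day 11 and 7 to 12 over time in control. It gave 4 to 13 in Nos3-/- and 0 to 2 for the difference of changes. An omission at each end had 8.09% and 22.8% of all genes passing at day 0 and 7.39% and 12.6% at day 11. Over time these were 31.6% and 36.5% in control and 24.5% and 33.5% in Nos3-/-. The G1 and S minus G2 and M change ranged from -0.12 to 0.00, -0.01 to 0.08, -0.17 to -0.08, -0.09 to 0.03 and 0.04 to 0.17 in the 5 comparisons. Array weights gave 6 calls at day 11, 18 in control, 15 in Nos3-/- and 3 for the difference, while 21.6%, 42.5%, 38.2% and 8.74% of all genes passed. Leaving out the 2 arrays that stood apart, or 3 with control day 0 replicate 5, gave 3 calls at day 11, 14 in Nos3-/- and 3 for the difference (13.5%, 35.7% and 7.23% of all genes without the 2; 13.4%, 35.4% and 7.88% without the 3); both were chosen after seeing the data. At day 11 median centring gave 2 calls, the mean of all probe sets 3 and the probe set of largest variance 6 (10.1%, 10.4% and 11.8% of all genes). Fitting only the arrays compared gave 5 calls in Nos3-/- (20.2% of all genes), and the fibroblast covariate 0 at day 0 (1.65% of all genes; 4 at an unadjusted p below 0.05). Reversed were Ccnd2 at day 0 under the covariate (0.0129) and Bub1b on its probe set of largest variance (0.54 and 0.66 at day 0 and day 11). The causes were not tested.

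With the replicate number as a block, 4 genes were called at day 0 (11.6% of all genes) and every other count stayed within 1.5 times. The labels do not say whether equal numbers pair the samples, and the deviations of arrays from their group means were correlated. Same-numbered arrays of day 0 and day 11 correlated at -0.24 to 0.27 in control (median -0.02), and 2 of 9 correlated best with their own number. In Nos3-/- they correlated at -0.02 to 0.29 (median 0.08), with 1 of 6 best. Same-numbered control and Nos3-/- arrays of day 0 correlated at -0.27 to 0.35 (median 0.14), with 2 of 6 best. Low correlations cannot exclude a pairing.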
